A study of Mus musculus with 15 samples.

Results

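The genes described here are 45 genes of the contractile apparatus and of excitation-contraction coupling in skeletal muscle, measured in the mouse muscle line C2C12. They were chosen by symbol, as the actins, troponins and other filament, M-band and Z-disc genes together with those of the calcium store and the voltage sensor. The myosin chains were left out of the choice and no measured value is part of the rule. All 45 were found among the 23352 genes listed, and 44 of them were among the 11945 genes tested. The remaining gene, Sln, was listed at 0 to 0.615 FPKM over all libraries and did not reach the minimum for testing (FPKM of 1 or more in 3 or more of the 15 libraries). FPKM scales the fragments of a gene by transcript length and library size, so levels of different genes can be compared per length.

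Polyadenylated RNA was sequenced from 15 libraries in 5 groups of 3, all of C2C12 cells that carried a lentiviral construct. The constructs encoded MLX in its wild-type form (MLX-WT) or as a dominant negative (MLX-DN), a hairpin that targets the Mlx transcript (MLX shRNA), green fluorescent protein alone (the GFP control, an empty vector) or a non-targeting shRNA, the control of the hairpin. The study asked how messenger RNA differs between muscle cells with raised and with lowered MLX activity. Nothing in the labels tells whether libraries of 1 group stem from separate cultures, and the p-values therefore reflect no more than library-to-library spread, possibly technical. The labels also give no hours of culture and no promoter for the constructs.

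In a sarcomere, thin filaments of actin, tropomyosin, troponin and nebulin slide past thick filaments of myosin, which are held at the M-band by myomesins and spanned by titin. Thin filaments are anchored at the Z-disc through alpha-actinin and its partners. A nerve impulse is sensed by the voltage sensor CaV1.1, which opens the ryanodine receptor of the sarcoplasmic reticulum. Calcium held there by calsequestrin is released, binds troponin C and is pumped back by SERCA. Many of these proteins exist as fast, slow or cardiac forms encoded by separate genes, and embryonic muscle uses cardiac forms as well. C2C12 cells grow as myoblasts and fuse into contracting myotubes when serum is withdrawn. MLX, a transcription factor of the helix-loop-helix leucine zipper class, binds E-boxes of DNA as a partner of MondoA, ChREBP and MAD proteins.

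Estimated depth was 37.1 to 82.8 M reads per library, and within groups the libraries' log2 values had correlations of 0.9978 to 0.9991. Mlx, read as a check of the labels, had 17.1 ± 0.516 FPKM (SD over n = 3) as GFP control mean and 17.1 ± 0.778 under the non-targeting shRNA. It was at 644 ± 11.6 under MLX-WT, 394 ± 8.76 under MLX-DN and 3.21 ± 0.645 under MLX shRNA, and the construct's own reads cannot be told apart from the cell's. RNA levels do not tell whether the MLX-DN protein acts as a dominant negative. Of the 8 myoblast markers all were tested, with Cdh15 at 130.2 to 189.8 FPKM, Myod1 at 58.5 to 95.2 and Pax7 at only 0.768 to 4.29. The label calls the cells myoblasts, yet Myog, which marks the start of differentiation, was at 442 to 718 FPKM and Myh3, embryonic myosin heavy chain, at 478 to 1022. Of the 4 endothelial markers none reached the minimum for testing. Of the 5 immune markers 2 were tested, and against the GFP control 1 rose under MLX-DN and 1 did not pass. Ptprc was at 4.39 to 4.74 FPKM under MLX-DN and at most 0.00989 in the other groups. All 5 immune markers summed to 5.30 to 5.65 FPKM under MLX-DN and 0.784 to 1.29 in the GFP control.

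The 45 genes together made up 4.62% to 4.70% of all FPKM in the GFP control libraries and 4.63% to 4.68% under MLX-WT. Their share was 4.40% to 4.46% under MLX-DN, 3.48% to 3.56% under the non-targeting shRNA and 4.13% to 4.30% under MLX shRNA. The GFP control and MLX-WT libraries overlapped at the top, and the non-targeting libraries were lowest and apart from all others. The non-targeting shRNA group had the lowest mean of the 5 groups in 24 of 44 tested members, against 9.28% of all tested genes, and the highest mean in none, against 18%. The GFP control had the highest mean in 18 members, against 32.6% of all tested genes. The ratio of the highest to the lowest group mean had a median of 1.70 in the members and 1.45 in all tested genes. It was under 1.5 in 15 members, 1.5 to 2 in 11, 2 to 4 in 10 and at least 4 in 8. Of all 11945 tested genes, 6666 were under 1.5 and 683 at 4 or more. In bulk libraries such as these, fewer cells with sarcomeres and less RNA per cell cannot be told apart.

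**Figure D1:**
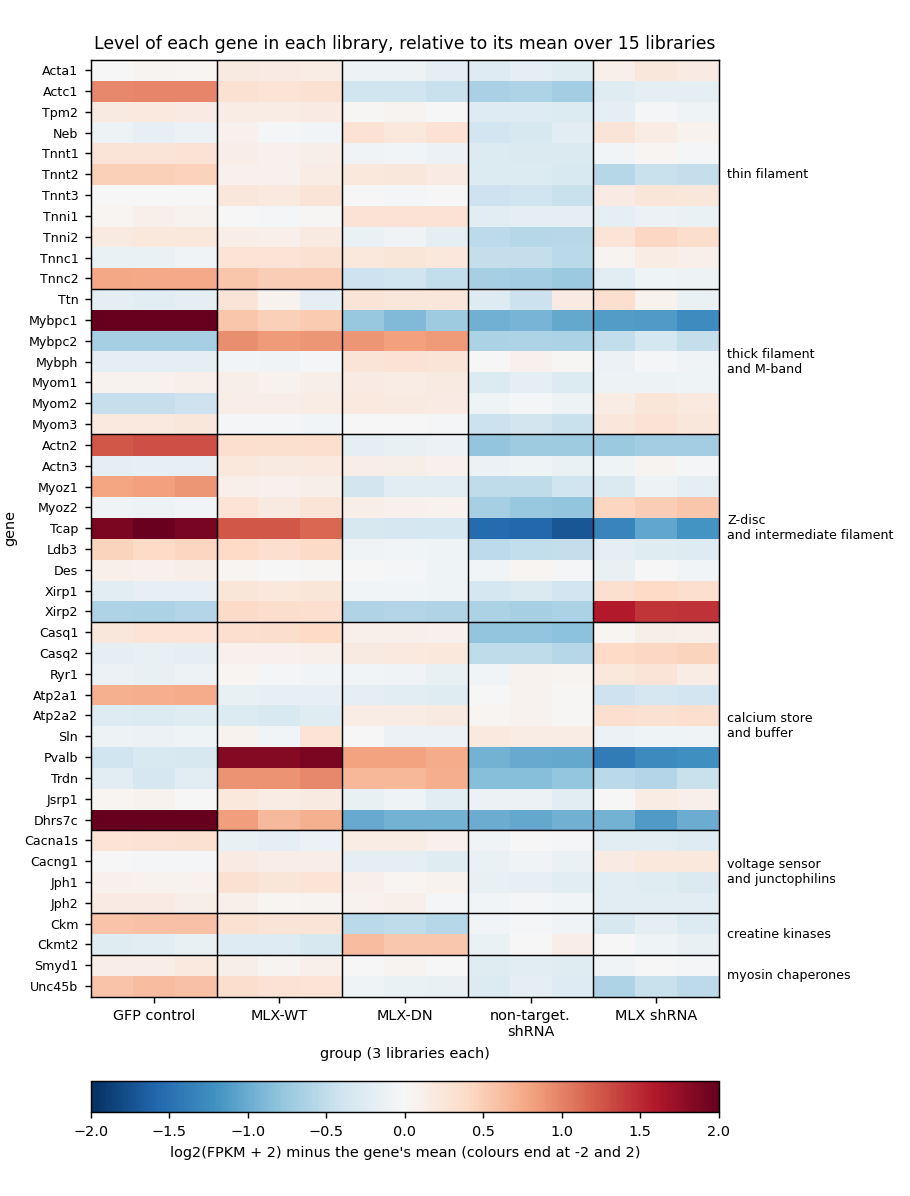
Level of each of the 45 genes (rows, in order of role) in each of the 15 libraries (columns, 3 per group), as log2(FPKM + 2) minus the gene's mean over all libraries, from blue (lower) to red (higher). The 3 libraries of a group look alike in nearly every row, Actc1, Mybpc1, Actn2, Tcap and Dhrs7c are reddest in the GFP control, Pvalb and Trdn under MLX-WT, and Xirp2 under MLX shRNA.

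Differences were tested with limma on the deposited log2 values, and a gene was called at an adjusted p under 0.05. With MLX-WT, 19 of 44 members rose and 18 fell against the GFP control, where 27.6% of all tested genes rose and 42.7% fell. With MLX-DN, 16 rose and 24 fell, against 32.6% and 48.8% of all tested genes. With MLX shRNA, 29 rose and 10 fell against the non-targeting shRNA, where 30.8% of all tested genes rose and 39.3% fell. MLX-DN was lower than MLX-WT in 27 members and higher in 9 (15 higher and 22 lower after quantile normalization), against 38.9% and 33.2% of all tested genes. The non-targeting shRNA was lower than the GFP control in 35 members and higher in 5, against 37.1% and 37%. Comparisons with the same control share its libraries. The share of all tested genes that was called depends on scaling. After centring each library on its median, 4511 rose and 3775 fell under MLX-WT (3300 and 5100 as deposited), 5017 and 4660 under MLX-DN (3892 and 5831), and 4675 and 3716 under MLX shRNA (3674 and 4695).

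Most of these differences were small. The median log2 difference over the members was -0.02 under MLX-WT (all tested genes -0.05), -0.14 under MLX-DN (-0.08), 0.25 under MLX shRNA (-0.02) and -0.39 between the controls (-0.0013). At 2-fold or more, 3 members rose and 2 fell under MLX-WT, where 0.954% of all tested genes rose and 0.72% fell by as much. Of the members 2 rose and 8 fell under MLX-DN (1.66% and 2.21% of all tested genes), 2 rose and none fell under MLX shRNA (0.486% and 1.02%), and none was higher and 8 were lower in the non-targeting shRNA than in the GFP control (1.38% and 1.13%). All log2 differences refer to log2(FPKM + 2), so those of genes with low levels come out too small. In the plot of differences by role, no gene of the voltage sensor and junctophilins or of the myosin chaperones reaches 2-fold in any of the 4 comparisons shown.

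**Figure D2:**
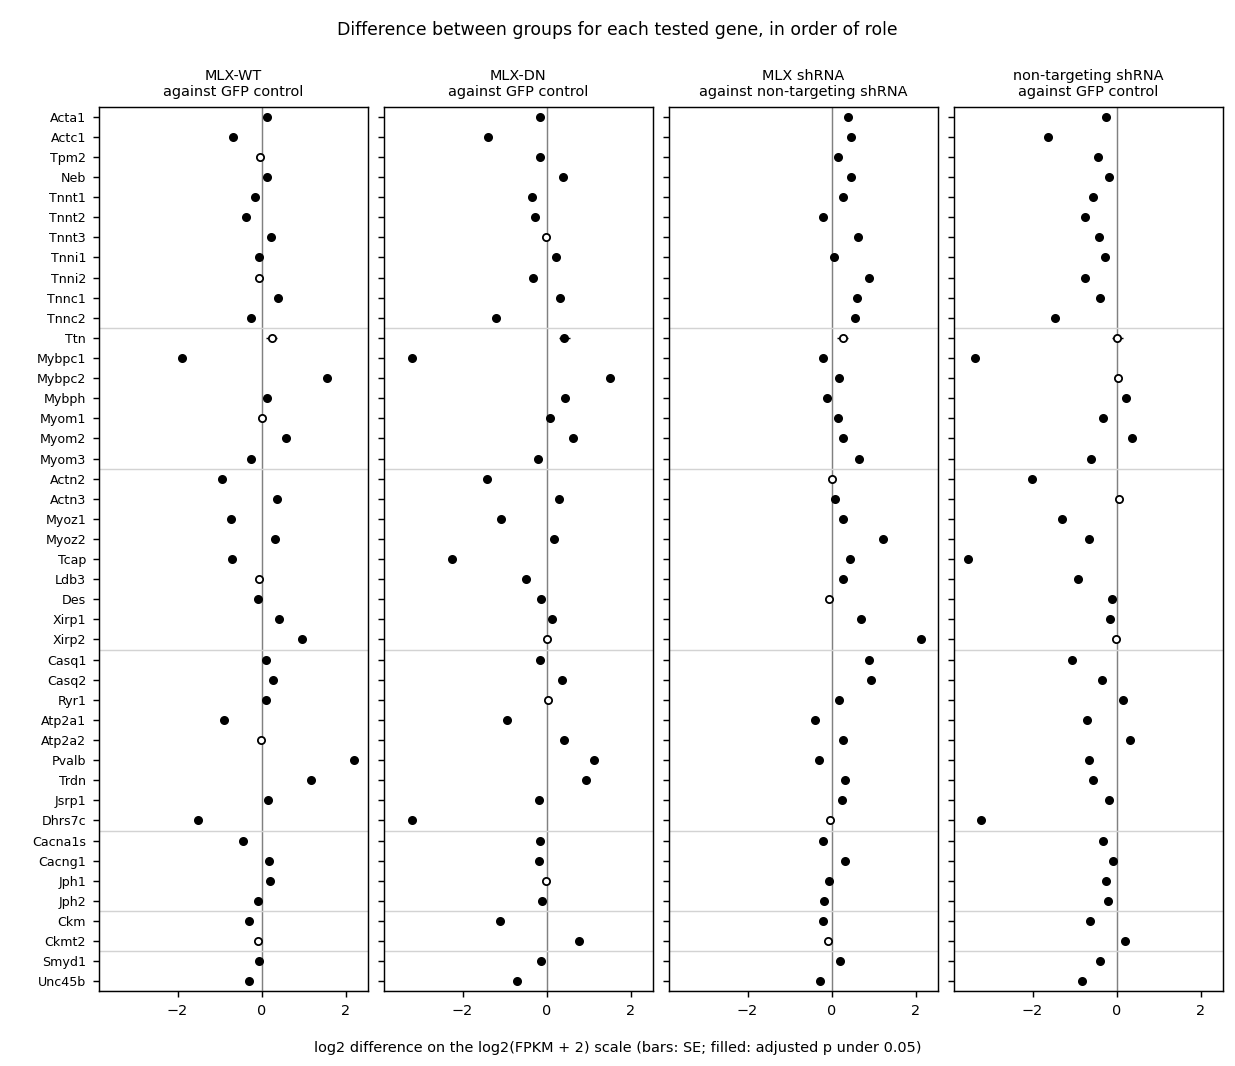
Log2 difference on the log2(FPKM + 2) scale (x axis) with its SE (bars, often hidden by the point) for the 44 tested genes (rows, in order of role) in 4 comparisons (panels). Filled points have an adjusted p under 0.05. Mybpc1 and Dhrs7c lie at -3.20 and -3.21 under MLX-DN, and Xirp2 at 2.13 under MLX shRNA.

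Upstream sequence was available for 30 of the 45 genes, as 35 start sites, in RefSeq promoters of the mouse build GRCm38.p6. Because MLX belongs to the E-box binding factors, the 250 bases before each start were searched on both strands for E-boxes, CANNTG, and for 2 kinds of E-box by their full letters. CANNTG stood in 29 of the 35, against 66.2% of 32851 promoters of the same length. Its form CAGCTG stood in 16 of 35 against 13%, and its form CACGTG in 2 of 35 (Actn2 and Unc45b) against 6.02%. The M-CAT letters CATTCC stood in 6 of 35 against 12.6%, a MEF2 site in 6 of 35 against 2.92%, a CArG box in 5 of 35 against 1.47%, and TATAAA, sought on the gene's strand, in 2 of 35 against 7.59%. Some genes have more than 1 start, whose stretches can overlap and hold the same match. Counted by gene, CAGCTG stood in 14 of 30 (14.7% of all 27025 genes with a promoter entry) and the CArG box in 4 of 30 (1.62%). A match is a description of letters and no binding was measured here. The 6 sequences that follow are of the pair of myosin-binding proteins C that moved in opposite directions, of both genes with CACGTG, and of Xirp2 and Pvalb, which had the largest rises and each hold a MEF2 site. All run 5′ to 3′ toward the start, with E-boxes in capitals (that of Pvalb holds none).
Mybpc1 (chr10:88605153-88605402, minus strand): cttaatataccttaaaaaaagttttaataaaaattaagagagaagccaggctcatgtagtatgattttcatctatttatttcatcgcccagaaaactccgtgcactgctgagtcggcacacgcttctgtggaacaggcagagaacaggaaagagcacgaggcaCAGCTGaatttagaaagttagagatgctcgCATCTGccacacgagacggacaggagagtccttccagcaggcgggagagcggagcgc
Mybpc2 (chr7:44524670-44524919, minus strand): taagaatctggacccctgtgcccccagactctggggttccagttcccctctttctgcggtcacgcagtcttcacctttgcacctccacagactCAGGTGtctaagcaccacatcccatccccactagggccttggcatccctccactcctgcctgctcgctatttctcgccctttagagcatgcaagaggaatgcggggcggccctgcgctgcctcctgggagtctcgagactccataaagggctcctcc
Actn2 (chr13:12340733-12340982, minus strand): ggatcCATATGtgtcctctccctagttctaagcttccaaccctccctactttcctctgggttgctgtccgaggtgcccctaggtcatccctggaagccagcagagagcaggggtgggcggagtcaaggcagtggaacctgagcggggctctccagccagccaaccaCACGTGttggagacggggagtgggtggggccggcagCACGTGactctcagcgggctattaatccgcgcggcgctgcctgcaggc
Unc45b (chr11:82911003-82911252, plus strand): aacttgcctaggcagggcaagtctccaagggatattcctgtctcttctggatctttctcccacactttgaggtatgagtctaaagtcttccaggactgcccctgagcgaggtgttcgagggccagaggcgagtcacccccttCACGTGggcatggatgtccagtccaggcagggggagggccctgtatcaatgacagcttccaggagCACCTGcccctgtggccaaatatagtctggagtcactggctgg
Xirp2 (chr2:67445752-67446001, plus strand): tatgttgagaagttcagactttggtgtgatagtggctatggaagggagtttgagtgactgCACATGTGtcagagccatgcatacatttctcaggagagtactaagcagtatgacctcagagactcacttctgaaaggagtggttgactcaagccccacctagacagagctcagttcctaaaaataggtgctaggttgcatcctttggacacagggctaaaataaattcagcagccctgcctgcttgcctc
Pvalb (chr15:78206401-78206650, minus strand, 1 of its 2 starts): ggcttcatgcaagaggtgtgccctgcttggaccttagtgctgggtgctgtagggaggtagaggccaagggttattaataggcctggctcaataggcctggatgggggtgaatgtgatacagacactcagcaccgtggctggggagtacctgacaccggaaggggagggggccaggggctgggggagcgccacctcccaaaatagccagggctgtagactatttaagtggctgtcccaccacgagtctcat

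Of the 11 thin filament genes, 4 rose and 5 fell under MLX-WT, 3 rose and 7 fell under MLX-DN (5 and 4 after quantile normalization), and 10 rose and 1 fell under MLX shRNA. Of all tested genes 27.6% rose and 42.7% fell, 32.6% and 48.8%, and 30.8% and 39.3%, in that order. The median log2 differences of the 11 were -0.06, -0.16 and 0.45, against -0.05, -0.08 and -0.02 for all tested genes. All 11 were lower under the non-targeting shRNA than in the GFP control as deposited (37.1% of all tested genes). After quantile normalization 9 were lower and 1 higher. There Tnni1 turned to 0.17 (limma adjusted p = 1.52e-07) and the call of Acta1 was lost (adjusted p = 0.106). The skeletal actin Acta1, the main actin of mature thin filaments, was measured at 2728, 2810.0 and 2770.0 FPKM in the GFP control, 3079, 3021 and 3017 under MLX-WT, 2526, 2534 and 2376 under MLX-DN, 2276, 2363 and 2279.7 under the non-targeting shRNA and 2903, 3173 and 3044 under MLX shRNA. Only the MLX-WT and MLX shRNA libraries overlapped each other, above all the rest, and the non-targeting libraries were lowest. The log2 difference of Acta1 was 0.40 (SE 0.0324, limma adjusted p = 2.81e-08) under MLX shRNA and -0.16 under MLX-DN, and its 0.13 under MLX-WT turned to -0.07 after quantile normalization (adjusted p = 0.136). The cardiac actin Actc1, which embryonic muscle uses beside Acta1, stood at 1441, 1457 and 1449.7 FPKM in the GFP control, 910.4, 893 and 908 under MLX-WT, 558, 559 and 543 under MLX-DN, 469, 478 and 454 under the non-targeting shRNA and 624, 648 and 647 under MLX shRNA. No 2 groups overlapped, with the GFP control highest, MLX-WT next and the non-targeting shRNA lowest. Actc1 fell under MLX-WT (-0.68) and MLX-DN (-1.39) on the log2 scale (limma adjusted p = 7.87e-13 and 1.09e-16), and it rose by 0.45 under MLX shRNA (adjusted p = 1.18e-10). Neb, which encodes the giant protein nebulin that runs along the thin filament, was at 52.8, 50.5 and 52.3 FPKM in the GFP control, 60.3, 56.1 and 54.9 under MLX-WT, 70.2, 66.2 and 70.1 under MLX-DN, 43.3, 44.9 and 48.7 under the non-targeting shRNA and 68.6, 62.9 and 59.7 under MLX shRNA. It was the 1 thin filament gene besides Tnnc1 that rose in all 3 comparisons with a control, by 0.13, 0.40 and 0.46. The MLX-WT call of Neb was lost without MLX-WT replicate 1 or GFP control replicate 2, with adjusted p up to 0.125. Tpm2, beta-tropomyosin, fell by 0.16 under MLX-DN as deposited and was 0.10 after quantile normalization.

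Troponin T ties the troponin complex to tropomyosin. Its slow form Tnnt1 was at 1036, 1036 and 1052 FPKM in the GFP control, 947, 918 and 931 under MLX-WT, 824, 832 and 797 under MLX-DN, 713, 706 and 702 under the non-targeting shRNA and 828, 885 and 845 under MLX shRNA. Its cardiac form Tnnt2 was at 2022, 2026 and 2014 FPKM in the GFP control, 1542, 1550.3 and 1608 under MLX-WT, 1677, 1702 and 1634 under MLX-DN, 1209.9, 1199 and 1179 under the non-targeting shRNA and 985, 1071 and 1041 under MLX shRNA. Its fast form Tnnt3 was at 1406, 1407 and 1429 FPKM in the GFP control, 1654, 1618 and 1698 under MLX-WT, 1403, 1397 and 1415 under MLX-DN, 1061, 1071 and 1035 under the non-targeting shRNA and 1584, 1667 and 1664 under MLX shRNA. Tnnt1 was highest in the GFP control, and its MLX-DN and MLX shRNA libraries overlapped. Tnnt2 was the 1 thin filament gene that fell under MLX shRNA, with -0.21 (SE 0.0286, limma adjusted p = 7.49e-06), and it also fell under MLX-WT (-0.37) and MLX-DN (-0.27). Tnnt3 rose by 0.63 under MLX shRNA and 0.23 under MLX-WT, and its MLX-DN libraries overlapped the GFP control at -0.01 (SE 0.0249, limma adjusted p = 0.7503).

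Troponin I holds the thin filament off in the absence of calcium. The slow form Tnni1 was at 1596, 1672 and 1632 FPKM in the GFP control, 1560.2, 1528 and 1587 under MLX-WT, 1896, 1892 and 1902 under MLX-DN, 1324, 1353 and 1355 under the non-targeting shRNA and 1367, 1439 and 1413 under MLX shRNA. The fast form Tnni2 was at 1039, 1060.2 and 1061 FPKM in the GFP control, 1009, 981 and 1035 under MLX-WT, 834, 877 and 805 under MLX-DN, 635, 619.7 and 625 under the non-targeting shRNA and 1107, 1220.1 and 1168 under MLX shRNA. In neither gene did any 2 groups overlap, though Tnni2 was not called under MLX-WT. The fall of Tnni1 there (-0.07) kept its call in 10 of 15 settings. It was 0.0004 after median centring (limma adjusted p = 0.988) and 0.03 after quantile normalization (adjusted p = 0.0964). The pair moved apart under MLX-DN, where Tnni1 rose by 0.22 (limma adjusted p = 6.85e-07) and Tnni2 fell by 0.33 (adjusted p = 3.29e-07), a fall that was 0.01 (adjusted p = 0.674) after quantile normalization. With MLX shRNA, Tnni2 rose by 0.89 (SE 0.0351) while Tnni1 differed by 0.07, which turned to -0.12 after quantile normalization and did not pass without MLX shRNA replicate 2 or 3 or non-targeting replicate 1 (adjusted p up to 0.106 over all settings).

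Troponin C is the calcium sensor of the thin filament. The slow and cardiac form Tnnc1 was at 2995, 3012 and 3133 FPKM in the GFP control, 3998, 3982 and 4082 under MLX-WT, 3793, 3892 and 3803 under MLX-DN, 2360.2, 2369 and 2268 under the non-targeting shRNA and 3438, 3649 and 3552 under MLX shRNA. The fast form Tnnc2 was at 1689.8, 1681 and 1684 FPKM in the GFP control, 1452, 1389 and 1392 under MLX-WT, 747, 749.6 and 703 under MLX-DN, 627, 611 and 593 under the non-targeting shRNA and 847, 939 and 929 under MLX shRNA. Tnnc1 was higher in all 3 MLX groups than in both controls, and rose by 0.40 under MLX-WT, 0.33 under MLX-DN and 0.60 under MLX shRNA (limma adjusted p = 3.47e-09, 1.74e-08 and 2.75e-11). Tnnc2 was highest in the GFP control and fell under MLX-DN with -1.20 (SE 0.0367, limma adjusted p = 1.07e-13), against -0.26 under MLX-WT. With MLX shRNA it rose by 0.57. Of the exon bases of Tnnc2, 74.0% are shared with Ube2c on the opposite strand in the GRCm38 annotation, and the sources used here do not tell if reads were counted by strand. Ube2c, a cell division gene, had group means of 21.9 to 47.5 FPKM, so reads of the pair may be mixed to that extent.

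Of the 7 thick filament and M-band genes, 3 rose and 2 fell under MLX-WT, 5 rose and 2 fell under MLX-DN, and 4 rose and 2 fell under MLX shRNA (5 and 1 after median centring). The shares of all tested genes were 27.6% and 42.7%, 32.6% and 48.8%, and 30.8% and 39.3%, in that order. The widest differences were in myosin-binding protein C, which decorates the thick filament and tunes cross-bridge cycling. Its slow form Mybpc1 was at 28.8, 28.5 and 28.7 FPKM in the GFP control, 6.46, 6.05 and 6.31 under MLX-WT, 1.41, 1.13 and 1.51 under MLX-DN, 0.972, 1.02 and 0.8399 under the non-targeting shRNA and 0.646, 0.636 and 0.403 under MLX shRNA. Every group was apart from every other, from the GFP control at the top to MLX shRNA at the bottom. The log2 difference was -1.89 (SE 0.0448, limma adjusted p = 1.22e-14) under MLX-WT and -3.20 (SE 0.0448, limma adjusted p = 1.57e-17) under MLX-DN, and mean FPKM was 0.219 and 0.0471 of the GFP control's. The non-targeting shRNA differed from the GFP control by -3.38, and under MLX shRNA it fell from there by 0.20 (adjusted p = 9.14e-04). The fast form Mybpc2 was at 5.3, 5.305 and 5.295 FPKM in the GFP control, 20.03, 18.8 and 19.2 under MLX-WT, 19.3, 18.4 and 18.9 under MLX-DN, 5.45, 5.55 and 5.46 under the non-targeting shRNA and 6.19, 7.02 and 6.33 under MLX shRNA. The MLX-WT and MLX-DN libraries overlapped each other, and all libraries of the other 3 groups lay well below them. Mybpc2 rose by 1.55 (SE 0.0343, limma adjusted p = 5.51e-15) under MLX-WT and 1.52 (SE 0.0343, limma adjusted p = 2.97e-15) under MLX-DN, by 0.18 under MLX shRNA, and differed by 0.04 (SE 0.0343, limma adjusted p = 0.345) between the controls. The upstream sequences printed above hold 2 E-boxes for Mybpc1 and 1 for Mybpc2, none of them CACGTG.

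**Figure D3:**
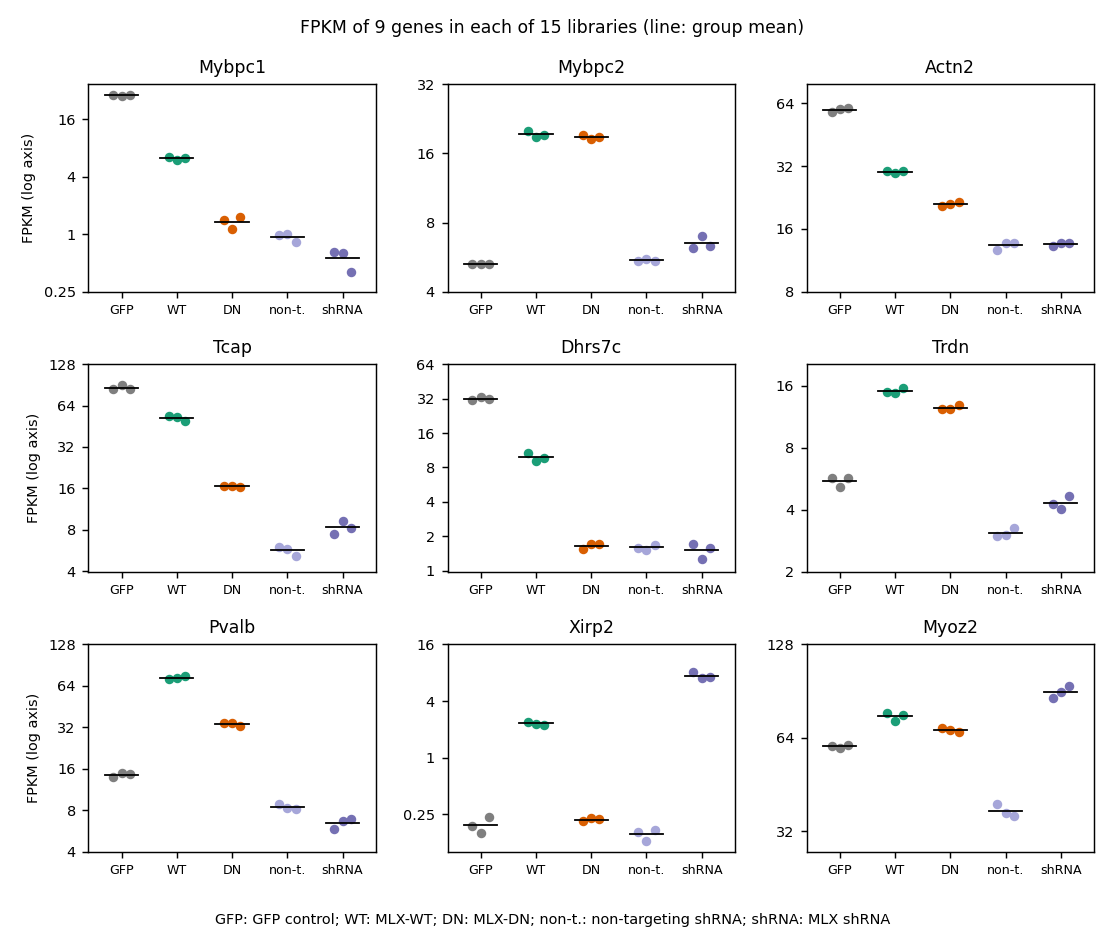
FPKM (y axis, log scale, a separate range in each panel) of 9 genes in each of the 15 libraries (points, by group along the x axis), with group means as lines. Mybpc1, Actn2, Tcap and Dhrs7c are highest in the GFP control, Mybpc2, Trdn and Pvalb in the MLX-WT and MLX-DN groups, and Xirp2 and Myoz2 under MLX shRNA.

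Mybph, myosin-binding protein H, was at 825, 835 and 837 FPKM in the GFP control, 911, 898 and 921 under MLX-WT, 1128, 1156 and 1126 under MLX-DN, 947, 997 and 957 under the non-targeting shRNA and 868, 931 and 899 under MLX shRNA. It rose under MLX-DN by 0.45 and under MLX-WT by 0.13, and fell under MLX shRNA by 0.10 (limma adjusted p = 0.002597), a call that was lost after median centring (adjusted p = 0.0748). Of its exon bases 49.9% are shared with Adora1 on the opposite strand, whose group means ran in the same order, from 56.2 FPKM for the GFP control up to 76.2 under MLX-DN, so the values of both are uncertain. Among the myomesins, which cross-link thick filaments at the M-band, Myom2 was at 165, 165 and 171 FPKM in the GFP control, 251, 249.7 and 251 under MLX-WT, 259.9, 258 and 256 under MLX-DN, 215, 223 and 213 under the non-targeting shRNA and 253, 271 and 261 under MLX shRNA. Myom2 was lowest in the GFP control and rose by 0.58, 0.62 and 0.27 in the 3 comparisons with a control. Myom3 fell under MLX-WT (-0.24) and MLX-DN (-0.21) and rose by 0.66 under MLX shRNA (limma adjusted p = 5.80e-12). Myom1 stayed within 28.3 to 39.3 FPKM over all libraries. Titin, the spring that spans from Z-disc to M-band, is encoded by Ttn, which was at 9.16, 8.84 and 9.19 FPKM in the GFP control, 13.1, 11.3 and 9.12 under MLX-WT, 13.04, 12.7 and 12.8 under MLX-DN, 8.52, 7.401 and 12.1 under the non-targeting shRNA and 14.01, 11.2 and 9.47 under MLX shRNA. MLX-DN lay above both controls and MLX shRNA above the GFP control, and every other pair of groups overlapped. With MLX-DN the difference was 0.43 (SE 0.135, limma adjusted p = 0.00896), the largest SE of any member.

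Of the 9 Z-disc and intermediate filament genes, 4 rose and 4 fell under MLX-WT, 3 rose and 5 fell under MLX-DN (4 and 4 after either rescaling), and 7 rose and none fell under MLX shRNA (6 and 1 after quantile normalization). The shares of all tested genes were 27.6% and 42.7%, 32.6% and 48.8%, and 30.8% and 39.3%, in that order. With the non-targeting shRNA 7 of the 9 were lower than in the GFP control and none higher (37.1% and 37% of all tested genes). Under MLX-DN 8 were lower than under MLX-WT and none higher (38.9% and 33.2%). After quantile normalization these became 6 lower and 2 higher, with Des among the 2, and 7 lower and 2 higher, with Actn3 among them. Tcap, telethonin, which caps titin at the Z-disc, was at 84.02, 90.3 and 85.2 FPKM in the GFP control, 53.6, 53.02 and 49.7 under MLX-WT, 16.7, 16.5 and 16.3 under MLX-DN, 6.005, 5.83 and 5.14 under the non-targeting shRNA and 7.404, 9.32 and 8.25 under MLX shRNA. No 2 groups overlapped, and the order ran from the GFP control through MLX-WT and MLX-DN to MLX shRNA and the non-targeting shRNA. Tcap fell under MLX-WT (-0.71) and MLX-DN (-2.25) (limma adjusted p = 2.03e-08 and 9.83e-15) and rose by 0.43 under MLX shRNA (adjusted p = 6.26e-06). Actn2, alpha-actinin 2, which cross-links thin filaments, was at 58.1, 60.1 and 60.7 FPKM in the GFP control, 30.1, 29.7 and 30.3 under MLX-WT, 20.6, 21 and 21.5 under MLX-DN, 12.7, 13.7 and 13.6 under the non-targeting shRNA and 13.3, 13.7 and 13.7 under MLX shRNA. Its order was the same except that the MLX shRNA and non-targeting libraries overlapped at 0.02 (SE 0.0282, limma adjusted p = 0.557), and it fell under MLX-WT (-0.94) and MLX-DN (-1.42) (limma adjusted p = 1.80e-13 and 7.16e-16). Its upstream sequence is the 1 with CACGTG at 2 places among the 30 members for which upstream sequence was available. Actn3, the form of fast fibres, moved little, with 0.36 under MLX-WT, 0.28 under MLX-DN and 0.08 under MLX shRNA, and its group means lay between 340.0 and 437 FPKM. The MLX shRNA call of Actn3 was lost without MLX shRNA replicate 2 or non-targeting replicate 3, and over all settings adjusted p reached 0.374.

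The myozenins bind calcineurin and alpha-actinin at the Z-disc. Myoz1 was at 5.78, 5.97 and 6.38 FPKM in the GFP control, 2.83, 2.79 and 2.89 under MLX-WT, 1.49, 1.92 and 1.93 under MLX-DN, 1.19, 1.18 and 1.43 under the non-targeting shRNA and 1.72, 2.23 and 1.94 under MLX shRNA. Myoz2 was at 60.5, 59.2 and 60.9 FPKM in the GFP control, 76.7, 72.4 and 75.97 under MLX-WT, 68.8, 67.7 and 66.9 under MLX-DN, 39.2, 36.7 and 35.8 under the non-targeting shRNA and 85.99, 89.6 and 94.3 under MLX shRNA. Myoz1 was highest in the GFP control and fell under MLX-WT (-0.73) and MLX-DN (-1.09). Myoz2, in which no 2 groups overlapped, was highest under MLX shRNA, where it rose by 1.23 (SE 0.0355, limma adjusted p = 1.08e-13), and lowest under the non-targeting shRNA. Its rises under MLX-WT and MLX-DN were 0.31 and 0.17.

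Xirp2 encodes xeplin, an actin-binding repeat protein of striated muscle. It was listed at 0.187, 0.1595 and 0.236 FPKM in the GFP control, 2.38, 2.31 and 2.25 under MLX-WT, 0.214, 0.227 and 0.221 under MLX-DN, 0.162, 0.1303 and 0.172 under the non-targeting shRNA and 8.14, 7.06 and 7.19 under MLX shRNA. The MLX-WT libraries and, above them, the MLX shRNA libraries stood apart, while the MLX-DN and GFP control libraries overlapped near 0.2 FPKM. The log2 difference was 2.13 (SE 0.0369, limma adjusted p = 2.36e-16) under MLX shRNA, 0.97 (SE 0.0369, limma adjusted p = 2.75e-12) under MLX-WT and 0.02 (SE 0.0369, limma adjusted p = 0.673) under MLX-DN. Xirp1, its relative Xin, was higher throughout at 20.9 to 37.2 FPKM and rose by 0.69, 0.42 and 0.12 in the same comparisons. Ldb3, which encodes the Z-disc scaffold ZASP, fell by 0.50 under MLX-DN, rose by 0.27 under MLX shRNA and did not pass under MLX-WT at -0.06 (SE 0.0269, limma adjusted p = 0.0731). Des, desmin, the muscle intermediate filament, lay within 1003 to 1199.6 FPKM, and its fall of 0.14 under MLX-DN turned to 0.16 after quantile normalization.

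Of the 9 tested genes of the calcium store and buffer, 6 rose and 2 fell under MLX-WT, 4 rose and 4 fell under MLX-DN, and 6 rose and 2 fell under MLX shRNA. The shares of all tested genes were 27.6% and 42.7%, 32.6% and 48.8%, and 30.8% and 39.3%, in that order. With the non-targeting shRNA 2 of the 9 were higher and 7 lower than in the GFP control (37% and 37.1% of all tested genes). Pvalb, parvalbumin, a cytosolic calcium buffer of fast fibres, was at 13.8, 14.8 and 14.7 FPKM in the GFP control, 72.1, 72.6 and 75.2 under MLX-WT, 34.3, 34.4 and 32.9 under MLX-DN, 8.84, 8.37 and 8.24 under the non-targeting shRNA and 5.88, 6.64 and 6.902 under MLX shRNA. No 2 groups overlapped, and both groups with MLX protein constructs lay above the GFP control and both hairpin groups below it. Pvalb rose by 2.19 (SE 0.0409, limma adjusted p = 6.75e-16) under MLX-WT and 1.12 (SE 0.0409, limma adjusted p = 8.15e-13) under MLX-DN, and it fell by 0.31 under MLX shRNA (adjusted p = 6.61e-06). Trdn, triadin, which anchors calsequestrin to the ryanodine receptor, was at 5.699, 5.18 and 5.73 FPKM in the GFP control, 14.9, 14.8 and 15.7 under MLX-WT, 12.4, 12.4 and 12.9 under MLX-DN, 2.99, 3.0 and 3.27 under the non-targeting shRNA and 4.24, 4.04 and 4.65 under MLX shRNA. Its groups stood in the same order as those of Pvalb except that MLX shRNA was above the non-targeting shRNA, with rises of 1.18 under MLX-WT, 0.95 under MLX-DN and 0.31 under MLX shRNA (limma adjusted p = 7.72e-13, 5.23e-12 and 5.34e-06). Dhrs7c, a short-chain dehydrogenase of the sarcoplasmic reticulum, was at 30.9, 32.8 and 31.9 FPKM in the GFP control, 10.8, 9.14 and 9.63 under MLX-WT, 1.55, 1.72 and 1.69 under MLX-DN, 1.59, 1.52 and 1.68 under the non-targeting shRNA and 1.697, 1.27 and 1.58 under MLX shRNA. The GFP control was highest, MLX-WT next, and the remaining 3 groups overlapped one another. It fell under MLX-WT (-1.52, SE 0.0499, limma adjusted p = 5.10e-13) and MLX-DN (-3.21, SE 0.0499, adjusted p = 5.13e-17), and under MLX shRNA the difference was -0.03 (SE 0.0499, limma adjusted p = 0.563).

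The calsequestrins store calcium in the sarcoplasmic reticulum, Casq1 mainly in fast fibres and Casq2 in slow fibres and heart. Casq1 was at 97.8, 100.3 and 101 FPKM in the GFP control, 105, 106 and 109 under MLX-WT, 89.01, 89.3 and 88.2 under MLX-DN, 46.8, 47.1 and 46 under the non-targeting shRNA and 84.7, 90.2 and 89.3 under MLX shRNA. Casq2 was at 250.3, 255 and 249 FPKM in the GFP control, 301, 302 and 305 under MLX-WT, 323, 326 and 330.4 under MLX-DN, 199, 199.8 and 191 under the non-targeting shRNA and 374, 381 and 387 under MLX shRNA. Both were lowest under the non-targeting shRNA and rose under MLX shRNA, by 0.89 (SE 0.0251, limma adjusted p = 8.23e-14) and 0.94 (SE 0.0217, limma adjusted p = 6.92e-15). In Casq1 the MLX shRNA libraries reached the MLX-DN range and stayed below the GFP control, and in Casq2 they were above every other group. With MLX-DN the pair moved apart, at -0.16 for Casq1 and 0.37 for Casq2 (limma adjusted p = 2.15e-05 and 2.45e-10).

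The SERCA pumps return calcium to the store. Atp2a1, the fast form SERCA1, was at 321, 327 and 328 FPKM in the GFP control, 177, 174 and 174 under MLX-WT, 173, 168 and 166 under MLX-DN, 194, 205 and 199.6 under the non-targeting shRNA and 146, 155 and 149 under MLX shRNA. Atp2a2, the slow and cardiac form SERCA2, was at 149, 147 and 150.3 FPKM in the GFP control, 148, 145 and 151 under MLX-WT, 199, 198 and 203 under MLX-DN, 185, 188 and 181 under the non-targeting shRNA and 227, 222 and 226 under MLX shRNA. Atp2a1 was highest in the GFP control and no 2 of its groups overlapped. It fell in all 3 comparisons with a control, with -0.89 under MLX-WT, -0.94 under MLX-DN and -0.41 under MLX shRNA (limma adjusted p = 1.48e-13, 3.44e-14 and 1.68e-09). Atp2a2 rose by 0.42 under MLX-DN and 0.28 under MLX shRNA, and MLX-WT overlapped the GFP control at -0.01 (SE 0.0218, limma adjusted p = 0.685). Of the exon bases of Atp2a1, 21.9% are shared with Rabep2 on the opposite strand, which was at 6.57 to 9.58 FPKM, small beside Atp2a1 itself.

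Ryr1, the calcium release channel, was at 35.9, 34.98 and 36.1 FPKM in the GFP control, 40.3, 38.1 and 37.5 under MLX-WT, 37.6, 37.1 and 35.2 under MLX-DN, 37.8, 41.3 and 40.7 under the non-targeting shRNA and 45.7, 47.1 and 43.7 under MLX shRNA. Its range was narrow and neighbouring groups overlapped, with only MLX shRNA apart from the rest, 0.18 (SE 0.0376, limma adjusted p = 5.35e-04) above its control. The MLX-WT call of Ryr1 (0.11) was lost without MLX-WT replicate 1 or GFP control replicate 2, with adjusted p up to 0.0902. Jsrp1, JP-45, which joins the store to the voltage sensor, rose by 0.14 under MLX-WT and 0.24 under MLX shRNA and fell by 0.18 under MLX-DN.

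The voltage sensor and junctophilins, 4 genes, gave 2 rises and 2 falls under MLX-WT (2 and 1 after median centring), no rise and 3 falls under MLX-DN (1 and 2), and 1 rise and 3 falls under MLX shRNA. The shares of all tested genes that rose and fell were 27.6% and 42.7%, 32.6% and 48.8%, and 30.8% and 39.3%, in that order. Cacna1s, the pore subunit CaV1.1, was at 46.1, 46.5 and 47.5 FPKM in the GFP control, 33.9, 33.3 and 34.6 under MLX-WT, 41.97, 42.4 and 40.3 under MLX-DN, 35.9, 38.2 and 36.8 under the non-targeting shRNA and 32.02, 32.4 and 31.4 under MLX shRNA. No 2 groups overlapped, the GFP control was highest and MLX shRNA lowest. Cacna1s fell under MLX-WT (-0.44), MLX-DN (-0.16) and MLX shRNA (-0.20) (limma adjusted p = 9.96e-10, 4.95e-05 and 7.90e-06). Of its exon bases 20.0% are shared with the predicted gene Gm37759 on the opposite strand. Cacng1, the gamma 1 subunit of the same channel, went the other way under MLX-WT (0.17) and MLX shRNA (0.31) and fell by 0.19 under MLX-DN. The junctophilins hold the store membrane to the surface membrane, and Jph1 (10.7 to 17.1 FPKM) and Jph2 (62.5 to 83.4 FPKM) differed by no more than 0.20 on the log2 scale in any of the 3 comparisons with a control. The Jph1 call under MLX shRNA was lost in 8 of 15 settings, among them without MLX shRNA replicate 2 or 3 or non-targeting replicate 1 or 2, with adjusted p up to 0.715. The Jph2 call under MLX-WT was lost in 5, among them without MLX-WT replicate 2 or 3 or GFP control replicate 1 or 2, with adjusted p up to 0.613.

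Creatine kinases recharge ATP beside the myofibril and in mitochondria. The cytosolic muscle form Ckm was at 357, 360.0 and 363 FPKM in the GFP control, 296, 289 and 287 under MLX-WT, 164, 168 and 162 under MLX-DN, 231, 236 and 230.1 under the non-targeting shRNA and 193, 211 and 198 under MLX shRNA. The mitochondrial muscle form Ckmt2 was at 1.41, 1.42 and 1.64 FPKM in the GFP control, 1.35, 1.36 and 1.22 under MLX-WT, 4.18, 3.83 and 3.84 under MLX-DN, 1.66, 2.06 and 2.39 under the non-targeting shRNA and 1.98, 1.78 and 1.63 under MLX shRNA. Ckm was lowest under MLX-DN, where it fell by 1.12 (SE 0.02799, limma adjusted p = 9.83e-15), and it also fell under MLX-WT (-0.31) and MLX shRNA (-0.21). Ckmt2 was highest under MLX-DN, where it rose by 0.77 (SE 0.0551, limma adjusted p = 2.85e-09). Of the exon bases of Ckm, 15.5% are shared with A930016O22Rik on the opposite strand, which had group means of 15.2 to 36.7 FPKM in the same order as Ckm.

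Both myosin chaperones, needed to fold and assemble sarcomeric myosin, were tested. Unc45b was at 65.5, 67.5 and 66.4 FPKM in the GFP control, 55.9, 53.2 and 52.97 under MLX-WT, 40.7, 39.3 and 38.9 under MLX-DN, 35.5, 37.8 and 35.9 under the non-targeting shRNA and 27.5, 31.4 and 29.5 under MLX shRNA. It was highest in the GFP control and lowest under MLX shRNA, no 2 groups overlapped, and it fell under MLX-WT (-0.29), MLX-DN (-0.72) and MLX shRNA (-0.29) (limma adjusted p = 6.02e-06, 7.83e-11 and 6.49e-06). Its upstream sequence holds CACGTG at 1 place. Smyd1, a methyltransferase that acts on myosin assembly, was at 33.5 to 46.1 FPKM. It fell by 0.13 under MLX-DN (not after median centring, adjusted p = 0.109) and rose by 0.20 under MLX shRNA, and its -0.07 under MLX-WT, which was 0.0014 after median centring, was lost in 4 of 15 settings, among them without MLX-WT replicate 2 or 3 or GFP control replicate 3, with adjusted p up to 0.961.

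Because many members come as fast, slow or cardiac forms, the balance of related genes was read as a ratio of their FPKM within each library. The ratio of Mybpc1 to Mybpc2 was 5.41 ± 0.0362 (mean ± SD, n = 3) in the GFP control, 0.324 ± 0.00318 under MLX-WT, 0.0714 ± 0.00924 under MLX-DN, 0.172 ± 0.0158 under the non-targeting shRNA and 0.0862 ± 0.0207 under MLX shRNA. Slow myosin-binding protein C thus led only in the GFP control. The ratio of Atp2a2 to Atp2a1 was 0.458 ± 0.00659 in the GFP control, 0.845 ± 0.0209 under MLX-WT, 1.18 ± 0.0362 under MLX-DN, 0.926 ± 0.0217 under the non-targeting shRNA and 1.501 ± 0.0656 under MLX shRNA. Atp2a2 exceeded Atp2a1 under MLX-DN and MLX shRNA. FPKM per gene does not tell the transcript forms of Atp2a2 apart. Cardiac to skeletal actin, Actc1 to Acta1, was at 0.523 ± 0.00492 in the GFP control and 0.297 ± 0.00304 under MLX-WT, and the other 3 groups had means of 0.203 to 0.223.

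The 3 troponin subunits did not shift alike. Slow to fast troponin C, Tnnc1 to Tnnc2, rose from 1.81 ± 0.0463 in the GFP control to 2.85 ± 0.0906 under MLX-WT and 5.23 ± 0.167 under MLX-DN, with every library of the 3 groups apart. Slow to fast troponin I, Tnni1 to Tnni2, was 1.55 ± 0.0231 and 1.55 ± 0.0125 in the first pair, which overlapped, and 2.27 ± 0.103 under MLX-DN. It went from 2.15 ± 0.0527 under the non-targeting shRNA to 1.21 ± 0.0278 under MLX shRNA, opposite to its shift under MLX-DN. Slow to fast troponin T, Tnnt1 to Tnnt3, was highest in the GFP control at 0.736 ± 0.000337 and lowest under MLX shRNA at 0.5203 ± 0.0117. The ratio of Actn2 to Actn3 went from 0.175 in the GFP control to 0.0687 under MLX-WT and 0.0508 under MLX-DN, that of Casq2 to Casq1 from 2.53 to 2.84 and 3.67, and that of Myoz2 to Myoz1 from 9.97 to 26.4 and 38.7. Between MLX shRNA and the non-targeting shRNA the ratios of troponin C, actin, calsequestrin and alpha-actinin overlapped. An exact two-sided permutation test of 3 libraries against 3 cannot go below p = 0.1, so no ratio could pass 0.05. The ratios with Tnnc2 and Atp2a1 carry the uncertainty of the overlapping genes named above.

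**Figure D4:**
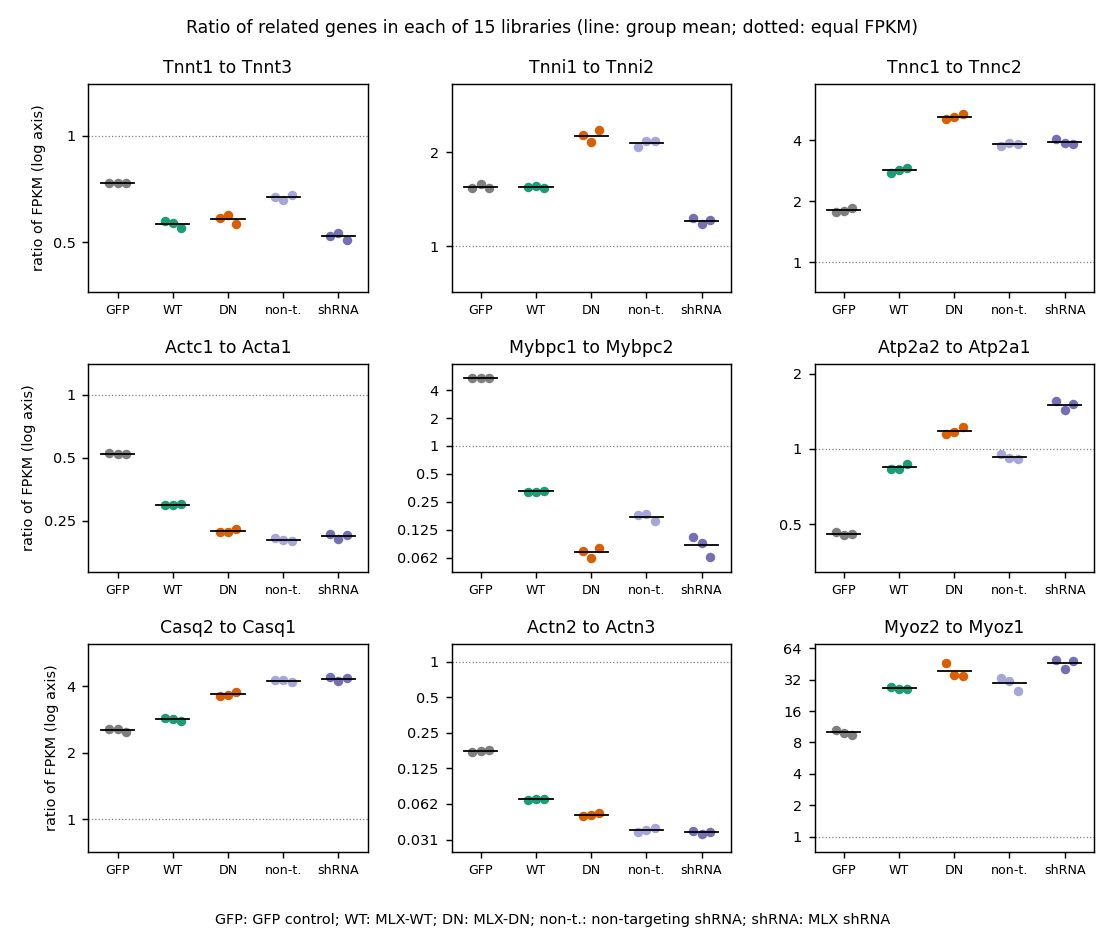
Ratio of FPKM of 9 pairs of related genes (panels) in each of the 15 libraries (points, by group along the x axis) on a log axis, with group means as lines and the dotted line where both genes are equal. The ratio of Mybpc1 to Mybpc2 is above 1 in the GFP control alone, and that of Tnnc1 to Tnnc2 is highest under MLX-DN.

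MLX-DN and MLX shRNA both aim at lowered MLX activity, and their comparisons share no library, so the effects were set against each other. Of the 24 members that fell under MLX-DN, 14 rose under MLX shRNA (58.3%), 7 fell (29.2%) and 3 did not pass. Of the 5831 tested genes that fell under MLX-DN, 22.7% rose under MLX shRNA and 47.4% fell. Of the 16 members that rose under MLX-DN, 12 rose under MLX shRNA (75%), 2 fell (12.5%) and 2 did not pass, and of the 3892 tested genes that rose under MLX-DN 42.1% rose and 32.2% fell. The 7 that fell in both were Tnnt2, Mybpc1, Atp2a1, Cacna1s, Jph2, Ckm and Unc45b, and the same 7 also fell under MLX-WT. The 14 that went opposite ways included both actins, Tnnc2, Tcap, Myoz1 and Casq1. The difference of the effects, MLX shRNA minus MLX-DN, passed in 36 of 44 members, 27 of them positive and 9 negative, against 42.8% and 32% of all tested genes. MLX shRNA minus MLX-WT passed in 37, 30 of them positive and 7 negative, against 35.9% and 29.5%. The median over the members was 0.42 in the first (all tested genes 0.06) and 0.25 in the second (0.04). Both differences contain the gap between the 2 controls. The non-targeting shRNA lay below the GFP control by a median log2 difference of -0.39 over the members (all tested genes -0.0013). Where the non-targeting shRNA was called lower, that gap makes a difference of effects more positive. A positive sign there cannot be told apart from the gap, and a negative sign runs against it. Mybpc2 (MLX shRNA minus MLX-DN -1.33) and Xirp2 (2.12) were not called between the controls. The plot of both sets of differences shows no single pattern among the genes that fell most under MLX-DN. With MLX shRNA, Dhrs7c and Actn2 lie near 0, Tcap and Actc1 above it and Mybpc1 below it. Dhrs7c and Mybpc1 were already low under the non-targeting shRNA, where the log2(FPKM + 2) scale narrows differences. Whether this limited a fall was not tested.

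**Figure D5:**
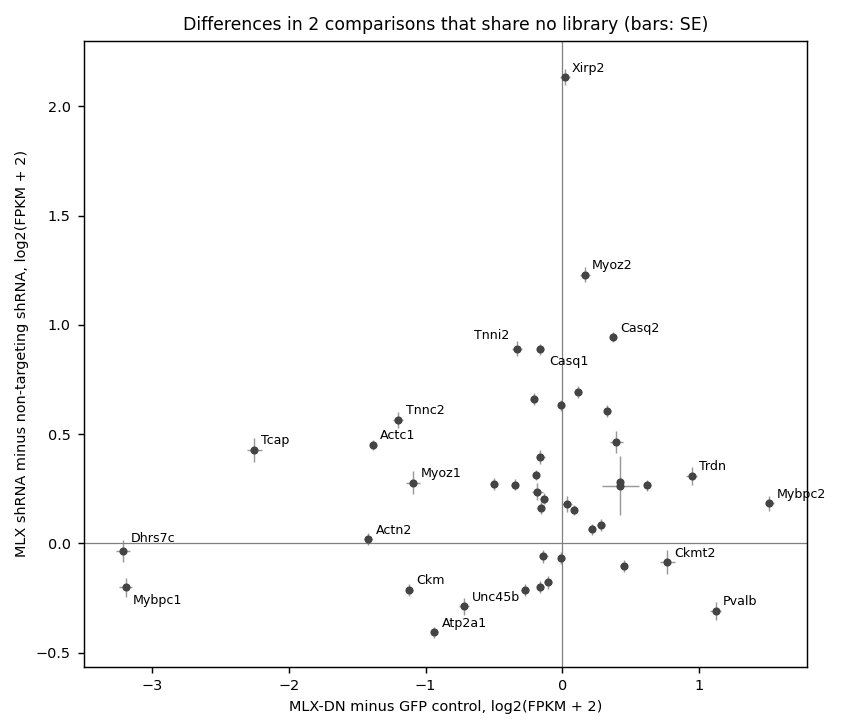
Log2 difference of MLX-DN from the GFP control (x axis) and of MLX shRNA from the non-targeting shRNA (y axis) for the 44 tested genes (points), with SE as bars. Tcap, Actc1, Tnnc2 and Myoz1 lie to the left and above 0, Mybpc1, Ckm, Atp2a1 and Unc45b to the left and below it, and Pvalb to the right and below.

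The controls differ so much in these genes that the choice of control sets many directions. Set against the non-targeting shRNA, 36 members were higher and 5 lower under MLX-WT, against 25.7% and 44.3% of all tested genes, and 36 were higher and 4 lower under MLX-DN, against 21% and 48.7%. Set against the GFP control, 16 were higher and 24 lower under MLX shRNA, against 37.3% and 42.8%. MLX-WT was above both controls in 17 members (11.4% of all tested genes), among them Acta1, Tnnt3, Tnnc1, Mybpc2, Myoz2, Xirp2, Pvalb and Trdn, and below both in Atp2a1 and Cacna1s (23.5% of all tested genes). After quantile normalization Acta1 no longer stood above the GFP control. MLX-DN was above both in 16 (15.1% of all tested genes), among them Neb, Tnni1, Tnnc1, Ttn, Mybpc2, Atp2a2, Pvalb, Trdn and Ckmt2, and below both in Atp2a1, Cacng1 and Ckm (34.9%). MLX shRNA was above both in 15 (21.4%) and below both in 9 (28%), among the latter Tnnt2, Mybpc1, Atp2a1, Pvalb, Cacna1s, Ckm and Unc45b. Below the GFP control and above the non-targeting shRNA lay 15 members under MLX-WT (7.62% of all tested genes) and 18 under MLX-DN (3.17%), including Actc1, Tnnc2, Mybpc1, Actn2, Myoz1 and Tcap in both. Some of these placements changed after quantile normalization. Tnni1 under MLX-WT then lay below the non-targeting shRNA (-0.14, limma adjusted p = 2.02e-06), as did Acta1 under MLX-DN (-0.12, adjusted p = 0.0212). Tpm2 under MLX-DN lay above the GFP control (0.10, adjusted p = 4.70e-04). Atp2a1 was the 1 member below both controls in all 3 MLX groups.

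Of the other genes of the sarcomere and Z-disc 39 of 43 were tested. Of the 39, 24 rose and 12 fell under MLX-WT, 21 rose and 13 fell under MLX-DN and 21 rose and 10 fell under MLX shRNA. With MLX-WT, Ankrd1 and Ankrd2, stretch-responsive titin partners, rose by 1.23 and 1.51, and under MLX shRNA Ankrd1 rose by 1.09 and the small heat shock protein gene Cryab by 0.95. In that list 15 were higher and 20 lower in the non-targeting shRNA than in the GFP control, and 18 higher and 19 lower under MLX shRNA than in the GFP control. The shares of all tested genes called in these comparisons, given above, are the background of these and the following counts. Of the other triad and calcium genes, 29 of 37 tested, 13 rose and 11 fell under MLX-WT, 13 rose and 11 fell under MLX-DN and 12 rose and 11 fell under MLX shRNA. Hrc, a calcium-binding partner of triadin, fell by 0.75 under MLX-DN and rose by 0.92 under MLX shRNA. Of the myosin chains, 14 of 15 tested, 7 rose and 6 fell under MLX-WT, 4 rose and 9 fell under MLX-DN and 9 rose and 4 fell under MLX shRNA. Myl2, the slow regulatory light chain, rose by 3.97 under MLX-WT and 5.21 under MLX-DN, whereas Myh4, the fast IIb heavy chain, fell by 2.26 under MLX-DN. Myh3 and Myh1 rose by 1.003 and 0.95 under MLX shRNA. Of 15 tested myogenic regulators 6 rose and 6 fell under MLX-DN, where Mef2c fell by 1.43, and 5 rose and 7 fell under MLX shRNA.

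Genes that mark dividing cells and other cell types differed between the same groups. Of 23 cell cycle genes, 21 fell under MLX-WT (16 after median centring), 22 under MLX-DN (21) and 23 under MLX shRNA (23). Between the controls, 18 were lower and 2 higher under the non-targeting shRNA. The summed FPKM of the cell cycle genes was 742 to 749 in the GFP control, 617 to 624 under MLX-WT, 453 to 460.3 under MLX-DN, 620.0 to 631 under the non-targeting shRNA and 415 to 421 under MLX shRNA. The 9 fibroblast markers, 6 of them tested, summed to 1439 to 1463, 1044 to 1061, 749.6 to 769, 1351 to 1426 and 585 to 594 in that order of groups, mostly of Col1a1, Col3a1 and Postn, with Thy1 at most at 0.0437 FPKM. The 7 smooth muscle markers, which include Des, summed to 3152 to 3244, 2479 to 2515, 2361 to 2419.8, 2466 to 2561 and 1907 to 2107. The 7 osteoblast markers, 4 of them tested, summed to 11.99 to 13.1, 72.4 to 76.2, 68.5 to 69.3, 17.5 to 19.7 and 70.6 to 76.5, with Bglap2 at 4.51 to 67.02 FPKM and Sp7 at most at 0.261. The 10 cardiac markers, 4 of them tested, summed to at most 20.0 FPKM, with the untested Tbx5 and Ryr2 at most at 0.0038 and 0.0208. Of the 4 tested, 2 rose and 2 fell under MLX-WT and likewise under MLX-DN, and 1 rose and 3 fell under MLX shRNA. The 5 adipocyte markers, 2 of them tested, summed to at most 11.5, with the untested Plin1 and Adipoq at most at 0.0134 and 0.0219. Of the 2 tested, 1 rose under MLX-WT, 1 rose and 1 fell under MLX-DN, and 2 fell under MLX shRNA. The part of these cells or states in the differences of the sarcomere genes was not tested.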

How the data were processed

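Log2 FPKM values in 1 table were deposited by the authors, from poly(A)-selected RNA of 15 C2C12 libraries made with a stranded kit, per the labels' protocols. The submitters' processing notes name CASAVA, TopHat2, STAR and mm9, with no role or version. For the counting program and its use of strand nothing is given in the sources used here. The lowest deposited value was 1 in every library, so values were read as log2(FPKM + 2). Counts are not in the table, and depth was read from the spacing of low values, 64.8% to 67.8% of which came within 0.05 of whole reads (10% if evenly spread). This assumes 1 length per gene and limits the precision of low levels.

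Groups and replicate numbers came from the labels. Genes that reached FPKM 1 in 3 or more libraries were tested with limma (3.58.1, R 4.3.3) on the deposited values, with all 15 libraries in the fit, a mean for each group, a trend over expression, two-sided p-values, Benjamini-Hochberg adjustment over all tested genes within a comparison, and a threshold of 0.05. The fit was tested on simulated data. Means ± SD are of FPKM over 3 libraries. The members, the other lists and the tests were chosen with earlier results of these data known. Values in every library are given for the 5 largest rises and falls of each comparison (called, groups apart, mean FPKM of at least 2 in the higher group), for the lowest p among the differences of effects, and for the troponins, actins, Ttn, Neb, Ryr1, Cacna1s, pumps and calsequestrins. Of other lists, genes are among the 4 of lowest p. As alternatives the offset, filter, scaling, variance model, control and libraries of the fit were changed, each library was left out, and a replicate block was added. Exon overlap was computed in the GENCODE M21 annotation of GRCm38, upstream sequence was taken from RefSeq promoters of GRCm38.p6, and no mm9 coordinate was used. Ratios were tested by exact permutation.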

Additional observations from a re-analysis of the deposited data

Results flagged for a closer look

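The effect of MLX shRNA and that of MLX-DN, each against its own control, differed by a direct test of the difference in the limma fit (adjusted p between 6.83e-16 and 8.60e-08 for the 10 members named). The members of lowest p with a more positive effect of MLX shRNA were Actc1 1.84, Mybpc1 2.99, Dhrs7c 3.18, Xirp2 2.12 and Actn2 1.44 on the log2 scale. For Xirp2 the rise under MLX shRNA makes this difference, and for Actc1, Mybpc1, Dhrs7c and Actn2 the fall under MLX-DN makes most of it. The GFP control exceeded the non-targeting shRNA in these 4 genes by more than MLX-DN lay below the GFP control, so the difference rests on a gap between the controls as well. Those of lowest p with a more negative effect of MLX shRNA were Mybpc2 -1.33, Pvalb -1.43, Mybph -0.55, Trdn -0.64 and Ckmt2 -0.86.

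The effects of MLX shRNA and MLX-WT were tested in the same way (adjusted p between 1.21e-14 and 2.65e-05 for the 10 named). The more positive were Actc1 1.13, Mybpc1 1.69, Myom3 0.91, Actn2 0.96 and Casq1 0.79. The more negative were Pvalb -2.50, Mybpc2 -1.36, Trdn -0.87, Myom2 -0.31 and Actn3 -0.28. Of all 20 differences named, those of Mybph and Actn3 rest on effects under 0.5 on the log2 scale in both comparisons.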

How the results depend on the processing

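The number of members called kept to within 1.5 times under other offsets, other filters, median centring, no trend, a fit of only the groups compared and the replicate block in the comparisons of each group with its own control, of MLX-DN with MLX-WT and of both controls. Against the non-targeting shRNA, median centring left 3 members lower under MLX-WT (5 as deposited) and 2 under MLX-DN (4). Leaving out 1 library gave 17 to 20 rises and 14 to 18 falls under MLX-WT, 16 and 24 throughout under MLX-DN, 27 to 29 and 9 to 10 under MLX shRNA, 8 to 9 and 24 to 27 between MLX-DN and MLX-WT, and 5 and 35 throughout between the controls. After quantile normalization 15 members were higher under MLX-DN than under MLX-WT (9 as deposited), and 8 were higher under the non-targeting shRNA than in the GFP control (5). The other control moved every count of calls, to 36 higher and 5 lower under MLX-WT, 36 and 4 under MLX-DN, and 16 and 24 under MLX shRNA. It also turned the direction of Mybpc1 (1.49), Dhrs7c (1.72), Actn2 (1.06) and Myoz1 (0.57) under MLX-WT, of Dhrs7c (0.0234, adjusted p = 0.692), Mybpc1 (0.19), Tcap (1.28), Actn2 (0.59) and Actc1 (0.24) under MLX-DN, and of Casq1 (-0.17) under MLX shRNA. That follows from the gap between the controls. Over 15 settings with the same control, the call of 32 of 44 members was the same in all under MLX-WT, 34 under MLX-DN, 36 under MLX shRNA, 34 between MLX-DN and MLX-WT and 40 between the controls. In the difference of MLX shRNA and MLX-WT, the call of Ckm was lost in 15 of 21 settings (adjusted p up to 0.831). With the replicate block 19 members rose and 18 fell under MLX-WT, 16 and 24 under MLX-DN and 29 and 10 under MLX shRNA, as without it. Deviations of libraries with the same number correlated at -0.0933 to 0.182 (median 0.029, 30 pairs) and those with other numbers at -0.276 to 0.243. No pairing by number was thus detected, but these correlations cannot exclude that libraries of the same number were prepared together. Depth is an estimate, and Sln, under 1 FPKM in all libraries, was not tested.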
